A study of Homo sapiens with 12 samples.

Results

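LURAP1L, UPP1, NIBAN1, PTPDC1, PDE2A, ABCC3, THSD4, and IL20RB are 8 genes whose mRNA was far more abundant in HCT116 cells after a mitochondrial or an endoplasmic reticulum (ER) stressor. They were picked by name from earlier results of these data for their large rises with either stressor, and each has 1 row in both count matrices, 8 of 60708 genes. Since the contrasts between treated and control libraries chose them, their changes are given as a description and carry no test. None of the 8 is among the 18 integrated stress response genes or the 14 unfolded protein response genes used as references here.

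HCT116 is a human colon cancer cell line, and all of its cultures here were wild type. One set of 3 biological replicates was treated for 24 h with oligomycin A (OA), which blocks the mitochondrial ATP synthase, and another set of 3 with tunicamycin (TN), which blocks N-linked glycosylation of proteins in the ER. Each set had 3 DMSO-treated biological replicates of its own, also taken at 24 h, which makes 12 RNA-seq libraries. The labels give 5 µg/mL for both OA and TN, whereas the methods of the study give a higher dose of OA.

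Both stressors are known to engage the integrated stress response, in which kinases phosphorylate the initiation factor eIF2α, general translation slows, and the transcription factor ATF4 is made in larger amounts. ATF4 and its partner DDIT3, also called CHOP, then bind composite C/EBP-ATF sites near their target genes. Unfolded proteins in the ER additionally activate ATF6 and XBP1, which bind ER stress elements and raise chaperones such as HSPA5. The 8 genes code for proteins of unlike function: an adaptor, a nucleoside phosphorylase, a cytoplasmic stress protein, a phosphatase, a cyclic nucleotide phosphodiesterase, an efflux transporter, a matrix protein, and a receptor chain.

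Library totals ranged from 9884124 to 24983573 counts, and the lowest count of any of the 8 genes in any library was 13, above a floor of 3 counts. Some libraries stood apart. In OA replicate 2, 17.9% of counts fell on RN7SL1, the 7SL RNA of the signal recognition particle, against 6.02% to 13.3% in the other 11 libraries, and its TMM scaling factor of 0.732 was the lowest of the 12. Within the TN experiment, both libraries numbered 2 and both numbered 3 had 1098 to 2871 counts of the interferon-stimulated gene ISG15 per 1000000 counts, whereas the 8 other libraries of the series had 154 to 237. On the scale of all levels here, counts per 1000000 of the TMM-scaled library (CPM), the epithelial markers summed to 4316 to 9470 per library, the leukocyte markers to 0.0998 to 1.37 CPM, the endothelial markers to 0.210 to 2.7 CPM, and the fibroblast markers to 1.42 to 12.9 CPM, highest in OA replicate 2. By edgeR, 3 of 7 tested epithelial markers were higher with each stressor. A bulk library cannot tell apart more cells that express a gene from more RNA per cell.

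The promoter of IL20RB and 1 of the 3 promoters of PTPDC1 are printed because they held letters of a stress response element, and that of LURAP1L because the gene had the largest change with both stressors. Each window is from RefSeq on GRCh38.p14, covers 250 bases before to 50 after a transcription start, and is read along the gene's strand, which is the plus strand for all 3. Capitals mark the matched letters.

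IL20RB, chr3:136957733-136958032: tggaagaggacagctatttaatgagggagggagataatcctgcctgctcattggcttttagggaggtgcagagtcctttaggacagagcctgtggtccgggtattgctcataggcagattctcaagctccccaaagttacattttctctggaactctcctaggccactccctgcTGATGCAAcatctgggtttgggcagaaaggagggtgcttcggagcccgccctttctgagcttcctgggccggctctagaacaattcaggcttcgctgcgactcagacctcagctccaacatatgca
PTPDC1, chr9:94030563-94030862: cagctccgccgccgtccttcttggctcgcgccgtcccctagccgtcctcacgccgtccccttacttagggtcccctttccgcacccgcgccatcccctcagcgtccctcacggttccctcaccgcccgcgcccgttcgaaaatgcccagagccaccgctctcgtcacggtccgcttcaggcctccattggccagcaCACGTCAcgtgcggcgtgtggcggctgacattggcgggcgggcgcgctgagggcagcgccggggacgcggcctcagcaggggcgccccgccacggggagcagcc
LURAP1L, chr9:12774770-12775069: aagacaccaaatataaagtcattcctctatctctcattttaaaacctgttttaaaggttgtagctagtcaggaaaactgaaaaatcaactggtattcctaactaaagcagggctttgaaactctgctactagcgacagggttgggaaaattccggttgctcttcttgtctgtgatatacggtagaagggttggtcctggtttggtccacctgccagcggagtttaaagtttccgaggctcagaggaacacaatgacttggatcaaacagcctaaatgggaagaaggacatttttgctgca

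The letters searched, on both strands, were TGATGNAA for the C/EBP-ATF response element (CARE), TGACGTG for the unfolded protein response element (UPRE), and the published consensus letters of the ER stress element (ERSE) and of ERSE-II. Of the 8 genes, 7 matched the RefSeq promoter table by symbol, with 13 windows in all, and ABCC3 had no entry. IL20RB had a CARE match, TGATGCAA, at positions -76 to -69 from the start. PTPDC1 had a UPRE match on the opposite strand at positions -54 to -48 of the window shown, and its other windows had none. Over all 35116 windows of the table, 3.62% held a CARE match, 1.97% a UPRE match, 0.0769% an ERSE match, and 0.0541% an ERSE-II match. The 2 matches did not overlap another motif, and no match in a window says only that these letters are absent from those 300 bases.

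With OA, the median log2 fold change of the 8 genes was 3.15, against -0.02 for all genes tested, and the single values ran from 2.57 for THSD4 to 6.66 for LURAP1L. With TN, the median was 3.07 against -0.03 for all genes, and the values ran from 1.61 for THSD4 to 4.79 for LURAP1L. Each of the 8 genes had every treated library above every DMSO library with both stressors, which also held for 16.3% of the genes tested with OA and 15.9% with TN. By edgeR's quasi-likelihood test, 4.48% of all genes tested had an adjusted p under 0.05 with OA, 2.76% higher and 1.72% lower. With TN, 6.99% of all genes passed, 3.65% higher and 3.34% lower. The 8 genes all passed that threshold with both stressors, which their choice on these contrasts fixes. By DESeq2 with OA, 7 of the 8 passed and UPP1 was given no adjusted p. When the DMSO library numbered 1, 2, or 3 of the OA experiment was left out, edgeR called only 5, 3, and 3 genes in all, or 0.0335%, 0.02%, and 0.0201% of those tested, and 1, 0, and 0 of the 8. The median log2 fold change of the 8 genes in these fits was 3.31, 3.04, and 3.23. Without OA replicate 3, 7 of the 8 passed, UPP1 not among them, with 0.587% of all genes. The same 7 passed with OA without both libraries numbered 1, with 0.349% of all genes. With TN, all but THSD4 passed when TNctrl replicate 2 or 3 or TN replicate 3 was left out, with 1.23%, 1.01%, and 2.07% of all genes. For scale, DDIT3 was 5.23 ± 0.51 higher on the log2 scale with OA (SE), or 4.53 ± 0.24 without OA replicate 2, and 4.33 ± 0.34 with TN.

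**Figure D1:**
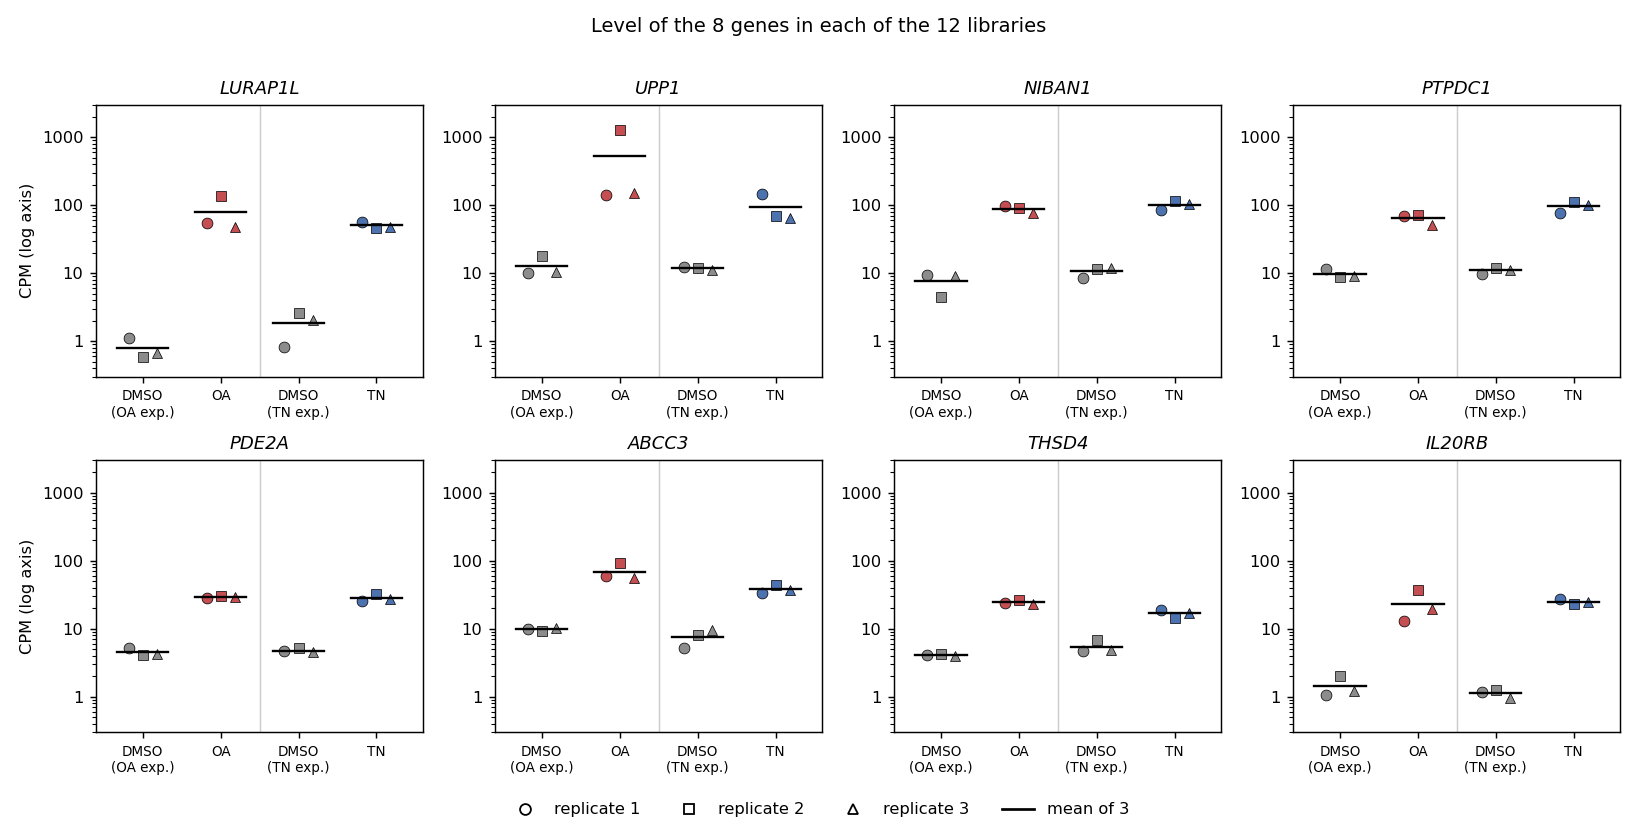
Level of the 8 genes in CPM, on a log axis, in each of the 12 libraries. Points are single libraries, with a symbol for each replicate number, and bars are means of 3. Treated points lie above all DMSO points in every panel, and UPP1 with OA has the widest spread, from 143 to 1288 CPM.

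LURAP1L codes for a leucine-rich adaptor protein whose paralog LURAP1 links the MRCK kinases to the myosin MYO18A. In DMSO libraries it was barely expressed, with 1.10, 0.593, and 0.661 CPM in the OA experiment, and it stood at 54.9, 135, and 47.8 CPM in the OA libraries. In the TN experiment it had 0.821, 2.56, and 2.08 CPM with DMSO and 56.9, 46.2, and 48.2 CPM with TN. The groups were far apart in both experiments, OA replicate 2 was the highest of the treated libraries, and the DMSO library numbered 1 of the TN experiment was below the other two. The log2 fold change was 6.66 ± 0.57 (SE) with OA, a 101-fold difference, and 4.79 ± 0.43 with TN, or 27.7-fold. It ranked 5 of 14681 genes by log2 fold change with OA and 14 of 14432 with TN.

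UPP1, uridine phosphorylase, splits uridine into uracil and ribose 1-phosphate and so opens the ribose of RNA and uridine to other uses. Its DMSO levels were 9.96, 18.0, and 10.4 CPM in the OA experiment and 12.2, 12.1, and 11 CPM in the TN experiment. With OA, the 3 libraries held 143, 1288, and 150.0 CPM, so that replicate 2 was 9.02 times the lowest library, the widest spread of the 8 genes in any group. TN libraries held 148, 68.4, and 65.3 CPM, with replicate 1 apart from the other 2. All treated libraries were above all DMSO libraries, and the log2 fold change was 5.36 ± 0.96 (SE) with OA and 3.00 ± 0.37 with TN. The value with OA corresponds to a 41.1-fold difference and rested in part on 1 library, since it was 3.50 ± 0.32 without OA replicate 2.

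NIBAN1 is a cytoplasmic protein that is made under cell stress and has been linked to the control of translation. In the OA experiment it had 9.49, 4.50, and 9.10 CPM with DMSO and 95.9, 89.8, and 76.6 CPM with OA. TN libraries held 83.6, 114, and 104 CPM against 8.43, 11.7, and 12 CPM with DMSO. The treated libraries lay close together, and the DMSO library numbered 2 of the OA experiment was the lowest of the 12. The log2 fold change was 3.51 ± 0.35 (SE) with OA and 3.23 ± 0.25 with TN.

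PTPDC1 belongs to the CDC14-type phosphatases and has been linked to the centrosome and the primary cilium. It stood at 11.4, 8.69, and 9.05 CPM with DMSO and at 68.8, 72, and 50.3 CPM with OA. In the TN experiment, the levels were 9.86, 12, and 11.1 CPM with DMSO and 76.1, 113, and 102 CPM with TN. Neither pair of groups overlapped, and the log2 fold change was 2.71 ± 0.28 (SE) with OA and 3.14 ± 0.24 with TN.

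PDE2A hydrolyses cAMP and cGMP and is itself stimulated by cGMP, and some of the enzyme is found in mitochondria. Its OA libraries held 28.2, 30.4, and 29.0 CPM against 5.19, 4.07, and 4.22 CPM with DMSO. The TN libraries held 25.6, 31.9, and 26.8 CPM against 4.65, 5.12, and 4.45 CPM with DMSO. With OA these levels varied the least of the 8 genes: the highest OA library was 1.08 times the lowest, and OA replicate 2 was level with the others. The changes of 2.7 ± 0.26 (SE) with OA and 2.56 ± 0.23 with TN on the log2 scale were near equal.

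ABCC3 is an efflux transporter of the multidrug resistance protein family that carries organic anions such as glucuronides and bile salts out of cells. DMSO libraries of the OA experiment held 9.96, 9.29, and 10.3 CPM and the OA libraries 59.8, 90.6, and 54.5 CPM. In the TN experiment, the values were 5.20, 7.97, and 9.42 CPM with DMSO and 33.0, 43.2, and 37.0 CPM with TN. OA replicate 2 was the highest of its group and the DMSO library numbered 1 of the TN experiment the lowest, and the groups did not overlap. The log2 fold change was 2.79 ± 0.29 (SE) with OA and 2.33 ± 0.29 with TN.

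THSD4 is a secreted ADAMTS-like protein that binds fibrillin and promotes the assembly of microfibrils. OA libraries held 23.9, 26.0, and 23.3 CPM against 4.14, 4.23, and 3.92 CPM with DMSO. TN libraries held 19.0, 14.1, and 16.9 CPM against 4.65, 6.78, and 4.90 CPM with DMSO. The groups were separate in both experiments, but THSD4 had the smallest change of the 8 genes with either stressor, 2.57 ± 0.26 (SE) with OA and 1.61 ± 0.27 with TN on the log2 scale. By log2 fold change it ranked 155 with OA and 428 with TN.

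IL20RB is the receptor chain that IL20RA or IL22RA1 joins to bind the cytokines IL-20 and IL-24. It was low with DMSO, at 1.05, 1.98, and 1.22 CPM in the OA experiment and 1.15, 1.25, and 0.964 CPM in the TN experiment. OA libraries held 13.0, 37.0, and 19.2 CPM and TN libraries 27.1, 22.8, and 24.6 CPM. OA replicate 2 was again the highest and the TN libraries were close together, with no overlap with DMSO in either experiment. The log2 fold change was 4.01 ± 0.50 (SE) with OA, or 16.1-fold, and 4.45 ± 0.26 with TN, or 21.9-fold.

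**Figure D2:**
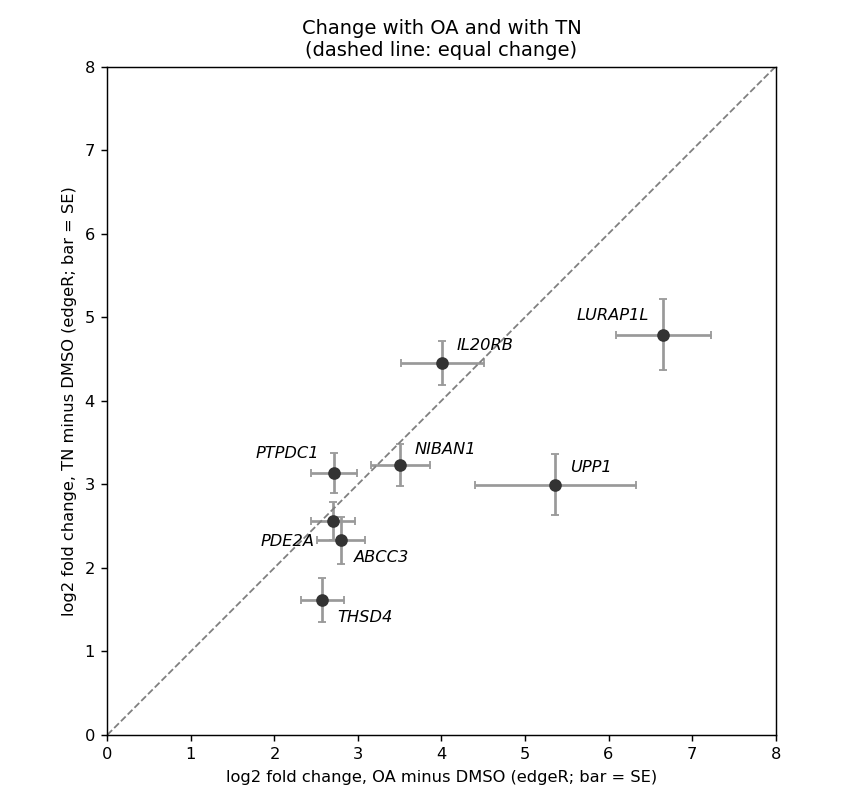
Log2 fold change of each of the 8 genes with OA (x axis) and with TN (y axis), edgeR estimates with bars of 1 SE. The dashed line marks equal change. LURAP1L, UPP1, and THSD4 lie farthest below it, and IL20RB and PTPDC1 lie above it.

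By the difference between the change with OA and the change with TN, fitted over all 12 libraries, the rise was larger with OA for 6 genes and larger with TN for 2. Each stressor had its own experiment and DMSO libraries, and only the TN experiment held interferon-high libraries. A difference between stressors thus cannot be told apart here from one between experiments. It was 2.24 ± 0.96 (SE) on the log2 scale for UPP1, 1.76 ± 0.61 for LURAP1L, and 0.89 ± 0.30 for THSD4. PTPDC1 had a difference of -0.51 ± 0.34 and IL20RB of -0.55 ± 0.50, toward TN. For ABCC3, NIBAN1, and PDE2A the differences were 0.37 ± 0.36, 0.20 ± 0.40, and 0.06 ± 0.29, close to or smaller than their errors. Without OA replicate 2, the difference was 0.52 ± 0.46 for UPP1 and 1.22 ± 0.50 for LURAP1L, whereas that of THSD4 stayed at 0.89 ± 0.30 and that of IL20RB went to -1.0 ± 0.41. OA replicates 1 and 3 had 54.9 and 47.8 CPM of LURAP1L, like the 46.2 to 56.9 CPM with TN. Its mean DMSO level was 0.785 ± 0.276 CPM (SD) in the OA experiment and 1.82 ± 0.90 in the TN experiment. The LURAP1L difference was 0.70 without all libraries numbered 2 and 2.58 without all those numbered 1. Across all genes, edgeR called 0 of 15429 for this difference (0%), with 348 at an unadjusted p under 0.05 and 2 called by DESeq2. edgeR called 25 with no filter on low counts, UPP1 being the only one of the 8 genes among them, 6 with the replicate block and GC offsets, and 4 without OA replicate 2, and none of the 8 genes was among the 2, the 6, or the 4. DESeq2 gave UPP1 no adjusted p, neither for this difference nor for the change with OA.

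OA replicate 2 was the highest of the 3 OA libraries for 7 of the 8 genes, the exception being NIBAN1, and 43.7% of all genes tested were also highest there. Leaving it out moved the log2 fold change with OA to 6.04 ± 0.33 (SE) for LURAP1L, 3.47 ± 0.37 for IL20RB, and 2.54 ± 0.22 for ABCC3. The values of NIBAN1, PTPDC1, PDE2A, and THSD4 without it were 3.50 ± 0.34, 2.63 ± 0.26, 2.67 ± 0.24, and 2.52 ± 0.24, nearly those with it. In the same library the 18 integrated stress response genes were a median of 2.93 above the DMSO mean on the log2 scale, against 2.16 and 2.00 in OA replicates 1 and 3. The median of the 8 genes was 3.39 there, against 2.98 and 3.02. The part of these library-wide values in the levels of the 8 genes was not tested.

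**Figure D3:**
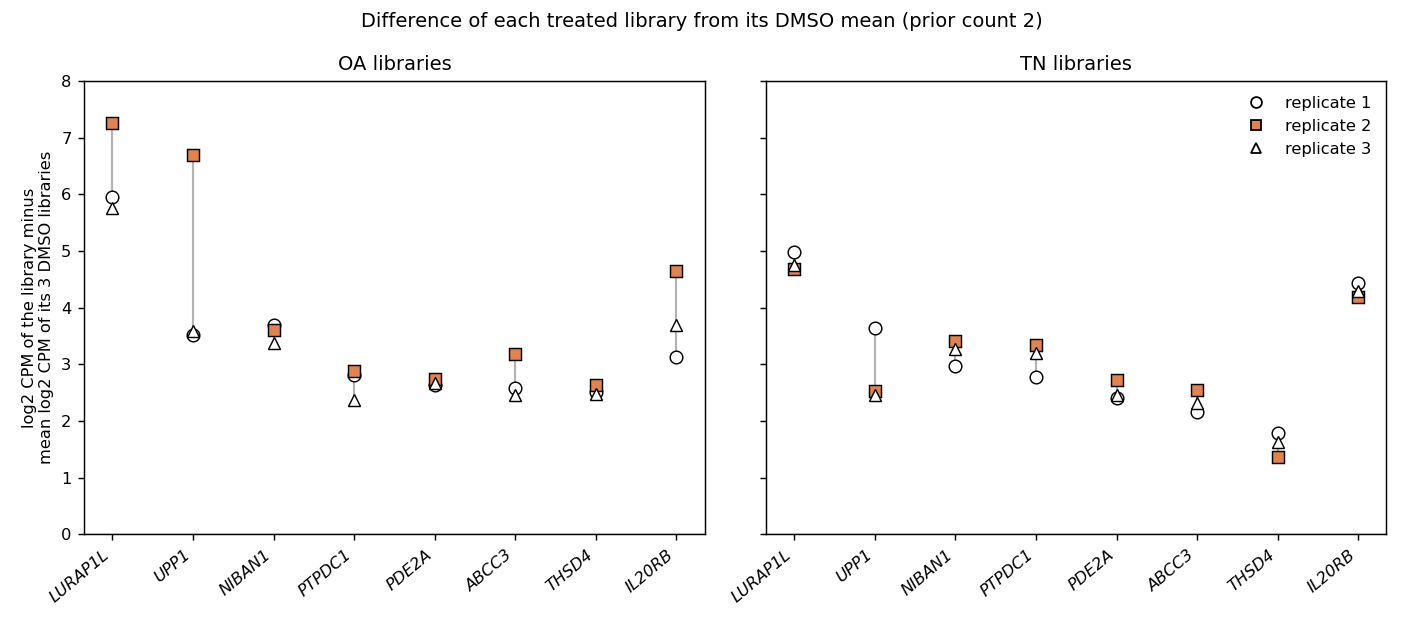
Log2 CPM (prior count 2) of each treated library minus the mean log2 CPM of its 3 DMSO libraries, for the 8 genes with OA (left) and TN (right). Symbols mark replicate numbers, and replicate 2 is filled. UPP1, IL20RB, and LURAP1L have the widest ranges with OA, where replicate 2 is on top.

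The TN experiment mixed low and high interferon libraries. Fitted on the interferon-high libraries alone, those numbered 2 and 3, the log2 fold change with TN was 4.40 ± 0.18 (SE) for LURAP1L, 2.60 ± 0.13 for UPP1, 3.27 ± 0.12 for NIBAN1, and 3.28 ± 0.12 for PTPDC1. It was 2.68 ± 0.19 for PDE2A, 2.28 ± 0.16 for ABCC3, 1.47 ± 0.22 for THSD4, and 4.46 ± 0.25 for IL20RB. Between the 2 libraries numbered 1, which had low ISG15, the log2 CPM differences were 5.88 for LURAP1L, 3.58 for UPP1, 3.29 for NIBAN1, and 2.93 for PTPDC1, with 1 library on each side. For PDE2A, ABCC3, THSD4, and IL20RB they were 2.42, 2.63, 1.99, and 4.39. All 8 genes were thus higher with TN in both kinds of library, and the values for the 2 kinds were farthest apart for LURAP1L and UPP1. Of the TN libraries, replicate 1 was highest for LURAP1L, UPP1, THSD4, and IL20RB and lowest for the other 4, and 50.8% of all genes tested were highest there.

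Per kilobase of exon, the genes differed in level as well as in change. UPP1 had the highest mean level with DMSO, 2.79 ± 0.98 CPM per kb (SD, n = 3) in the OA experiment and 2.57 ± 0.15 in the TN experiment. THSD4 and LURAP1L were the lowest with DMSO in the OA experiment, at 0.255 ± 0.010 and 0.256 ± 0.090 CPM per kb, a pair that did not differ beyond its spread. With OA, UPP1 stood at 115 ± 144 CPM per kb and LURAP1L at 25.9 ± 15.8, and their ranges overlapped. NIBAN1, PTPDC1, and IL20RB followed with OA at 10.5 ± 1.2, 10.0 ± 1.8, and 9.44 ± 5.11 CPM per kb and could not be ordered, and the range of ABCC3 at 7.11 ± 2.03 overlapped all 3, whereas PDE2A at 4.07 ± 0.15 and THSD4 at 1.52 ± 0.09 were below all others. With TN, the means of UPP1, LURAP1L, and PTPDC1 were 20.5 ± 10.3, 16.5 ± 1.9, and 15.2 ± 3.0 CPM per kb, and the 3 ranges overlapped. LURAP1L was thus among the 3 lowest means with DMSO and the second highest with either stressor. Levels were scaled within each experiment.

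**Figure D4:**
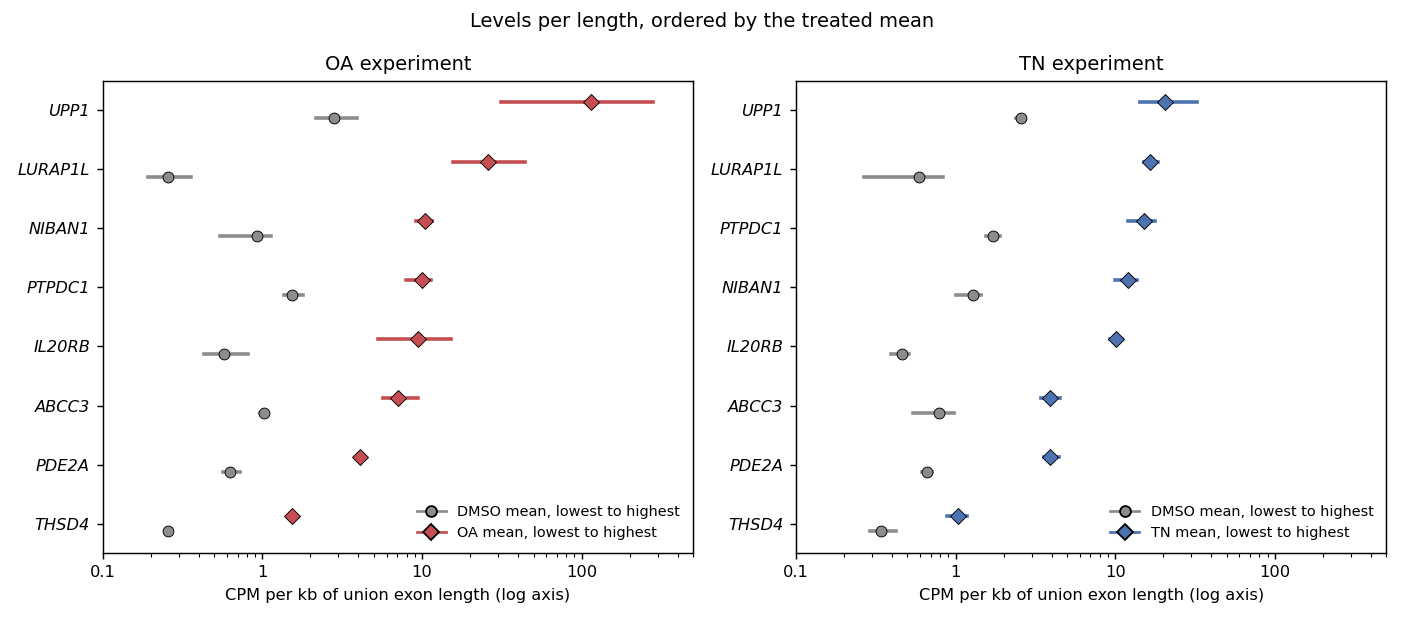
Level of the 8 genes in CPM per kb of union exon length, on a log axis, in the OA (left) and TN (right) experiments. Symbols are means of 3 libraries and lines run from the lowest to the highest library, with genes ordered by the treated mean. UPP1 is at the top and THSD4 at the bottom with both stressors.

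The 8 genes lie on 7 chromosomes of hg38, as annotated by Gencode. LURAP1L (chr9:12775020-12823060) and PTPDC1 (chr9:94030794-94109856) share chromosome 9 and are both on the plus strand. UPP1 is at chr7:48088628-48108736, ABCC3 at chr17:50634777-50692253, THSD4 at chr15:71096952-71783383, and IL20RB at chr3:136946230-137011085, all on the plus strand. NIBAN1 at chr1:184790724-184974508 and PDE2A at chr11:72576141-72674591 are on the minus strand. Their spans run from 20.1 kb for UPP1 to 686 kb for THSD4.

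Relatives and partners of the 8 proteins were tested for changes of their own. From 8 lists of 84 genes, 48 were tested with each stressor, and by edgeR's test 2 changed with OA and 3 with TN, all lower. These shares, 4.17% and 6.25% of those tested, were near the 4.48% and 6.99% of all genes, in fits without a replicate block. At an unadjusted p under 0.05 there were 18 with OA and 17 with TN, and these shares of 37.5% and 35.4% were above the 23.3% and 24.3% of all genes. Directions were mixed over the lists: 23 of the 48 tested genes had a log2 fold change above 0 with OA and 22 with TN. DESeq2 called 8 and 10, or 16.7% and 20.8%, against 13.1% and 15% of all genes. With the replicate number as a block, edgeR called 39.6% with OA and 35.4% with TN, against 26.7% and 27.1% of all genes. CDKN3, which codes for a phosphatase of cyclin-dependent kinases and was listed with PTPDC1, fell with both stressors. It had 54.5, 46.9, and 50.0 CPM with DMSO and 15.9, 13.5, and 19.7 CPM with OA, and its log2 fold change was -1.63 ± 0.26 (SE) with OA (adjusted p = 0.0221) and -1.78 ± 0.19 with TN (adjusted p = 0.00517). When scaled to ACTB, the change of CDKN3 with OA was -1.20 ± 0.34 and did not pass (adjusted p = 0.0547).

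Of the other cyclic nucleotide phosphodiesterases, 10 were tested, of which 5 had a log2 fold change above 0 with OA and 4 with TN. The 2 with an edgeR adjusted p under 0.05, both with TN, were lower, opposite to PDE2A. PDE4B, which hydrolyses cAMP, fell with TN, with a log2 fold change of -1.95 ± 0.22 (edgeR adjusted p = 0.0059), from 255, 176, and 191 CPM to 58.0, 49.2, and 53.2 CPM. PDE7A, also specific for cAMP, also fell with TN, with -1.18 ± 0.24 (edgeR adjusted p = 0.0287). In 1 fit of all 12 libraries, neither PDE4B nor PDE7A passed with TN (adjusted p = 0.0974 and 0.115), and PDE7A did not when scaled to ACTB (adjusted p = 0.195). With OA, the log2 fold changes of PDE4B and PDE7A were -1.34 ± 0.77 and -1.0 ± 0.47 and did not pass (adjusted p = 0.336 and 0.246), and OA replicate 2 had only 6.19 CPM of PDE4B against 87.8 and 102 CPM in the other OA libraries. Without that library, the log2 fold change of PDE4B with OA was -0.80. Without both libraries numbered 2, PDE4B was at -0.94 ± 0.18 with OA and passed (edgeR adjusted p = 0.0376). With the replicate block, both passed with OA, PDE4B at -1.91 ± 0.56 (edgeR adjusted p = 0.0309) and PDE7A at -1.17 ± 0.29 (adjusted p = 0.0165), and with GC offsets added PDE7A passed (adjusted p = 0.0262). PDE7B and PDE4D, named after their values were seen, were higher with OA by 2.94 ± 0.99 and 2.09 ± 0.55 without passing (adjusted p = 0.124 and 0.0706). Unlike PDE4B and PDE7A, these 2 were not followed singly under the other settings. TK1, a thymidine kinase listed with UPP1 for pyrimidine salvage, fell with OA, with a log2 fold change of -1.43 ± 0.33 (edgeR adjusted p = 0.0498) from 280, 442, and 336 CPM to 81.9, 137, and 173 CPM, and did not pass when scaled to ACTB (adjusted p = 0.0871) or in 1 fit of all libraries (adjusted p = 0.0632). In the TN experiment TK1 had 367, 248, and 246 CPM with DMSO and 226, 54.0, and 54.9 CPM with TN, so that TN replicate 1 stood apart. Its log2 fold change was -1.36 ± 0.57 (adjusted p = 0.198), and -2.36 ± 0.26 without that library (adjusted p = 0.00168). Of the 14 tested genes of the pyrimidine list, 6 had a log2 fold change above 0 with OA and 5 with TN. Among these, named after their values were seen, TYMP, NT5E, and CDA were 1.12, 1.90, and 1.53 higher with OA. With TN they were 0.74, 1.09, and 1.60 higher, and none passed edgeR's test with either stressor (lowest adjusted p = 0.0532, NT5E with TN).

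In the other 5 lists no gene passed edgeR's test in the main fits. These took each stressor apart with all of its libraries, filterByExpr, TMM scaling, and neither a replicate block nor GC offsets. The lowest p of each list belonged to CDC42BPB, NIBAN2, ABCC10, PAPLN, and IL22RA1, some of which passed under the other settings given below. CDC42BPB, an MRCK kinase, was 0.55 ± 0.24 higher with OA on the log2 scale (edgeR adjusted p = 0.208), and with TN the difference was 0.40 ± 0.23 (adjusted p = 0.353). NIBAN2, a paralog of NIBAN1, differed by 0.41 ± 0.29 with TN (adjusted p = 0.443), and passed with TN when scaled to ACTB, at 0.74 ± 0.18 (adjusted p = 0.0477), or without both libraries numbered 1, at 0.39 ± 0.08 (adjusted p = 0.00026). With OA its sign turned with the scaling, 0.09 with TMM and -0.14 when scaled to total counts. ABCC10, a relative of ABCC3, differed by 0.54 ± 0.31 with OA (adjusted p = 0.335), and PAPLN, an ADAMTS-like matrix protein, by -1.29 ± 0.41 (adjusted p = 0.110). PAPLN with OA passed by DESeq2 (adjusted p = 0.0463) and in edgeR with the replicate block, GC offsets, both together, or 1 fit of all libraries (adjusted p = 0.0391 to 0.0452). With TN, PAPLN differed by -1.09 ± 0.35 (adjusted p = 0.106) and passed with the replicate block, at -1.09 ± 0.34 (adjusted p = 0.0476). IL22RA1, a partner chain of IL20RB, differed by -1.52 ± 0.54 with OA (adjusted p = 0.141), while IL20RB itself was 16.1-fold higher, and by -1.66 ± 0.72 with TN (adjusted p = 0.213), or -1.92 ± 0.63 without both libraries numbered 1 (adjusted p = 0.0154). With the replicate block and GC offsets together, PAPLN, IL22RA1, and CDC42BPB passed with TN (adjusted p = 0.0318, 0.0493, and 0.0391).

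With OA, neither CDKN3 nor TK1 was called without any 1 of the 3 DMSO libraries or OA replicate 3, in fits that called 5, 3, 3, and 91 of all genes. The log2 fold changes stayed near those above, at -1.53, -1.63, -1.64, and -1.79 for CDKN3 and -1.55, -1.20, -1.47, and -1.70 for TK1. Without OA replicate 2 edgeR called 3 genes of the lists, or 5.88% against 5.53% of all genes, but not TK1. With TN it called 9 without TN replicate 1, or 18% against 15.8% of all genes, and 2 without any other library, when PDE7A was lost and 1.01% to 3.16% of all genes were called. With the replicate number as a block, taken to pair the libraries of the TN experiment, 17 were called with TN, or 35.4% against 27.1% of all genes, among them TK1 at -1.69 ± 0.29.

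**Figure D5:**
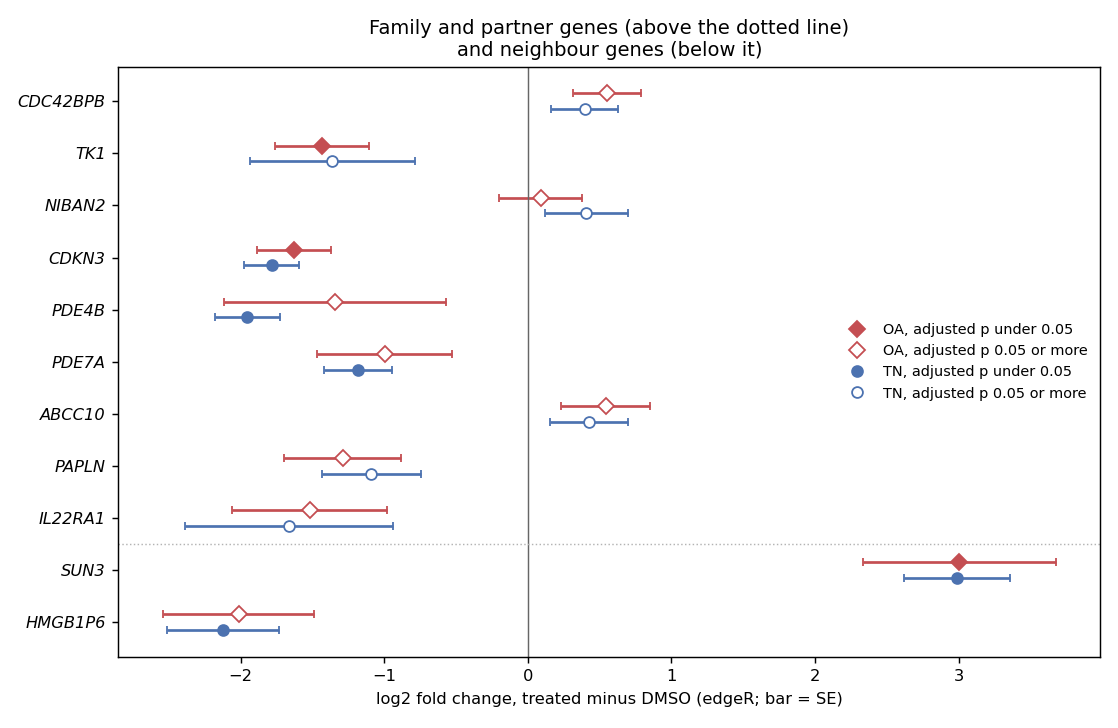
Log2 fold change of the family and partner genes (above the dotted line) and of 2 neighbour genes (below it) with OA and TN, edgeR estimates with bars of 1 SE. Filled symbols have an adjusted p under 0.05. CDKN3 and SUN3 are filled for both stressors, on opposite sides of 0.

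Genes next to the 8 were examined in the same way, every gene that overlaps 1 of them and the nearest tested gene on each side, 31 in all. The nearest tested genes lay from 0.945 kb (ANKRD40, after ABCC3) to 3333 kb (RN7SL5P, before LURAP1L) away. FIGNL1, NFIB, and HSPA8P9 were also far, at 2335, 1259, and 869 kb, so not all of these neighbours are close. Of these, 18 were tested with OA and 17 with TN, and edgeR called 1 and 2, or 5.56% and 11.8% against 4.48% and 6.99% of all genes. At an unadjusted p under 0.05 there were 3 and 2, or 16.7% and 11.8% against 23.3% and 24.3%. SUN3, a nuclear envelope protein of the SUN domain family, lies 59.5 kb before UPP1 on the opposite strand and rose with both stressors. It had 2.31, 3.40, and 1.93 CPM with DMSO and 12.8, 42.3, and 6.64 CPM with OA, where replicate 2 was the highest as for UPP1. In the TN experiment it had 1.97, 0.854, and 1.93 CPM with DMSO and 12, 14.0, and 11.8 CPM with TN. The log2 fold change of SUN3 was 3.00 ± 0.67 with OA (adjusted p = 0.0471) and 2.99 ± 0.37 with TN (adjusted p = 0.00662), with no overlap between groups. Without OA replicate 2, the change of SUN3 with OA was 1.93 ± 0.41 (adjusted p = 0.0409), and when scaled to total counts it did not pass (adjusted p = 0.0528).

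HMGB1P6, a processed pseudogene inside THSD4 on the opposite strand, fell with TN, with a log2 fold change of -2.12 ± 0.39 (edgeR adjusted p = 0.0227), the reverse of its host. Its parent gene HMGB1 fell with TN, with -1.67 ± 0.25 (adjusted p = 0.0106). With OA, the values were close to these, -2.01 ± 0.53 for HMGB1P6 (adjusted p = 0.0690) and -1.60 ± 0.37 for HMGB1 (adjusted p = 0.0519), and both passed by DESeq2 (adjusted p = 0.00381 and 0.00261) and in edgeR with no filter, GC offsets, the replicate block, or 1 fit. With TN, neither passed when scaled to ACTB (adjusted p = 0.0711 and 0.0669). Both also lost the call without TNctrl replicate 2 or 3 or TN replicate 3, and HMGB1P6 without TNctrl replicate 1. The edgeR adjusted p in these fits was 0.0736 to 0.108 for HMGB1P6 and 0.0512 to 0.0756 for HMGB1. Their log2 fold changes stayed near those above, at -2.06 to -2.17 for HMGB1P6 and -1.63 to -1.83 for HMGB1. Since the 2 genes are near copies, their reads cannot be told apart with certainty. Next to ABCC3, the long noncoding RNA CTB-22K21.2, named after its values were seen, lies 2.84 kb before it on the opposite strand and differed by 2.81 ± 0.67 with OA (adjusted p = 0.0563), which passed by DESeq2 (adjusted p = 0.00403) and in edgeR when scaled to ACTB, with no filter, or with the replicate block, GC offsets, or both (adjusted p = 0.0229 to 0.0312). NCK1, which overlaps IL20RB on the same strand, differed by -0.14 ± 0.48 with OA and 0.05 ± 0.44 with TN. The other overlapping genes had few counts: at most 54 over the 6 libraries of an experiment, with none for PDE2A-AS2, MIR139, RNU7-105P, IL20RB-AS1, THSD4-AS1, and RP11-1123I8.1. LURAP1L-AS1 had 30 and 42, RP11-592N21.1 51 and 54, RP11-592N21.2 21 and 19, CYCSP24 10 and 17, CT62 4 and 4, RNU7-13P 6 and 1, and PDE2A-AS1 1 and 2 in the OA and TN experiments. Since the strand kept in counting is not given in the sources used here, reads of a gene and its antisense partner cannot be told apart. Without any 1 of the DMSO libraries or OA replicate 3, in the fits with few calls over all genes, SUN3 was not called with OA, and its log2 fold change was 2.95, 3.30, 2.83, and 3.41. Without OA replicate 1 or 2 edgeR called 2 neighbours, in fits that called 7.57% and 5.53% of all genes. With TN it called 1 without any 1 of the DMSO libraries or TN replicate 3, when 1.01% to 3.16% of all genes were called. With TN and the replicate block it called 4, or 23.5% against 27.1% of all genes.

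The 3 genes whose levels ran most closely with each of the 8 over the 12 libraries were taken by Pearson's r of log2 CPM among 13656 genes. LURAP1L was nearest to DDIT3 (0.99), DDIT4 (0.99), and CUTALP (0.99), and UPP1 to STK40, ITPKC, and SQSTM1 (0.99 each). PDE2A was nearest to GDF15 (0.99), a secreted stress cytokine, then to MAP1B and KDM5B, and THSD4 to BMERB1, DDIT4, and IRF2BP2. NIBAN1 was nearest to GOLPH3L, MAP1B, and PTPDC1, and PTPDC1 to SPX, NIBAN1, and PDE2A, so that 2 of the 8 genes were among each other's nearest. ABCC3 was nearest to SH3TC1, TNFRSF10B, and ARHGEF2, and IL20RB to ALDH2, SARS1, and EML2. With 6 treated and 6 DMSO libraries these r mostly reflect the step between them.

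Within groups, where that step is taken out, the 8 genes ran together less. Over the 28 pairs, r across the 12 libraries was 0.81 for UPP1 and PTPDC1 at the lowest and 0.98 for NIBAN1 and PTPDC1 at the highest. The same r of deviations from the group means ran from -0.59 for NIBAN1 and IL20RB to 0.85 for UPP1 and IL20RB, with a median of 0.22 and 18 of the 28 above 0. UPP1 had a within-group r of 0.98 with both ITPKC and SQSTM1, the autophagy receptor p62, and of 0.95 with STK40. SQSTM1 stood at 1975, 7634, and 2472 CPM in the OA libraries, highest in replicate 2 as UPP1 was, with 143, 1288, and 150 CPM. The within-group r of UPP1 was not computed without that library. The genes set beside each of the 8 were picked by r over the same 12 libraries, so their within-group r is not independent of that choice. For LURAP1L the within-group r was 0.88 with CUTALP and 0.83 with DDIT3 but 0.51 with DDIT4. PDE2A had 0.67 with MAP1B, 0.54 with GDF15, and 0.17 with KDM5B, and THSD4 had 0.56 with IRF2BP2, 0.48 with BMERB1, and 0.37 with DDIT4. DDIT3 had 220, 574, and 179 CPM in the OA libraries and 8.39, 9.68, and 7.73 CPM with DMSO. These are descriptions over 12 libraries that share treatment, depth, and scaling.

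Reference genes of the stress pathways give a scale for these changes. Of 16 integrated stress response genes tested by edgeR, 12 were higher with OA and 11 with TN, with a median log2 fold change of 3.08 and 2.02. Of 14 unfolded protein response genes, 4 were higher with OA and 13 with TN, with a median of 1.19 and 2.25. The medians of the 8 genes, 3.15 with OA and 3.07 with TN, lay above both lists with either stressor, which the choice of the 8 genes for large rises makes uninformative. HSPA5, the ER chaperone BiP, was 2.83 ± 0.52 higher with OA (SE, adjusted p = 0.0301) and 2.90 ± 0.21 with TN (adjusted p = 0.0024). The OA libraries of HSPA5 held 604, 2083, and 577 CPM, and without replicate 2 its change with OA was 1.95 ± 0.17 (adjusted p = 0.00486). ASNS, asparagine synthetase, was higher by 3.09 ± 0.37 (adjusted p = 0.0149) and 2.67 ± 0.34 (adjusted p = 0.00707).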

How the data were processed

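RNA-seq libraries of HCT116 cells, 3 treated and 3 DMSO-treated biological replicates for each of 2 stressors, were grouped by their labels. The authors mapped the reads to hg38 with STAR, used its gene counts option with a Gencode annotation, and deposited raw counts without normalization. The fold changes, p-values, and mean levels in the authors' own result tables were not used. The members and gene lists were chosen with earlier results of these data known.

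Genes were filtered with filterByExpr, scaled by TMM, and tested two-sided by the quasi-likelihood method in edgeR 4.0.16 (R 4.3.3). OA and TN were fitted apart, each with its own controls and no replicate term, and p-values were adjusted by Benjamini-Hochberg over all genes tested. The difference between stressors was a contrast over all 12 libraries. Standard errors were obtained from the log2 fold change and its F statistic. Library totals were 9884124 to 24983573 counts. The scripts were tested on simulated data.

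Named genes were the 8 members, the genes of their family and partner lists with an adjusted p under 0.05 or else the lowest p, all overlapping genes, called neighbours, and the 3 genes nearest to each member by Pearson's r of log2 CPM (prior count 2) among genes with a mean of at least 1 CPM. Lengths and positions came from a later Gencode release on hg38. Same-numbered libraries deviated together across genes with correlations of 0.64, 0.41, and 0.43 in the TN experiment, each over 0.1, so the numbers were taken to pair them, although the labels do not state a shared batch. The main fits of TN still had no replicate term, so their p-values leave this pairing out, and the block was run as an alternative. Numbers 2 and 3 were not told apart by this, since TN replicate 2 correlated with 0.44 with the DMSO library numbered 3 and TN replicate 3 with 0.38 with that numbered 2, and these 4 libraries were also the interferon-high ones.

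The alternatives tried were the DESeq2 test (version 1.42.0), edgeR with the size factors of DESeq2, scaling to ACTB or to total counts, other filters, a replicate block, GC offsets, 1 fit of all libraries, and leaving out libraries. Those of the difference between stressors for the members were added after the data were seen.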

Additional observations from a re-analysis of the deposited data

How the results depend on the processing

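All 304 log2 fold changes of the 8 genes under the alternatives run were above 0, the lowest being 1.44 for THSD4 with TN when scaled to total counts. That scaling moved the median of all genes by -0.20 with OA and -0.15 with TN, and scaling to ACTB by 0.45 and 0.33. The median of the 8 genes was 2.92 and 2.90 under the first and 3.56 and 3.37 under the second, and the share of called genes that were higher went from 61.6% with OA and 52.2% with TN to 47.1% and 37.7%, and to 94.1% and 84.5%. Depth limits genes such as LURAP1L and IL20RB, with 13 to 50 counts per DMSO library.

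Calls over all genes, 658 with OA and 1009 with TN, were 1927 and 2162 with DESeq2, 1572 and 1648 with no filter, and 2398 and 3171 with GC offsets. For OA they were 1425 when scaled to ACTB and 1681 in 1 fit of all libraries. Calls among family and partner genes, 2 with OA and 3 with TN, were 8 and 10 with DESeq2, 7 and 7 with no filter, 9 and 13 with GC offsets, and 6 and 1 in 1 fit. They were 5 with OA when scaled to ACTB, CDKN3 and TK1 not among them, and 6 with TN when scaled to total counts. Calls among neighbours with OA, 1 under TMM scaling, were 0 when scaled to total counts, 2 when scaled to ACTB, 3 with DESeq2, GC offsets, or 1 fit, and 4 with no filter. With TN they went from 2 to 1 when scaled to ACTB.

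With the replicate block, 3914 genes, 19 family and partner genes, and 5 neighbours were called with OA, and 3915, 17, and 4 with TN. The block with GC offsets gave 3800, 12, and 4 with OA and 5432, 24, and 6 with TN. For OA the same-numbered libraries correlated with 0.62, 0.54, and 0.09, so the numbers were not taken to pair them.

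Without 1 library, calls over all genes ranged from 3 to 1179 with OA and 151 to 2361 with TN, and without 1 number in both groups from 0 to 797 and 0 to 6267, with 52 for OA without both libraries numbered 1. The 8 genes all lost their calls without OActrl replicate 2 or 3, without both OA libraries numbered 3, and without both TN libraries numbered 2 or 3, and 7 lost them without OActrl replicate 1, in fits that called 0 to 5 of all genes. Without 1 library or number, calls of family and partner genes ranged from 0 to 4 and 0 to 27, and those of neighbours from 0 to 2 and 0 to 7. The difference between stressors gave 0 calls among family and partner genes in every setting run. NIBAN2 with OA turned to -0.14 when scaled to total counts, -0.053 with the replicate block and GC offsets, -0.060 with GC offsets, and -0.00351 in 1 fit, and it ranged from -0.099 to 0.39 without 1 library, below 0 without OActrl replicate 1 (-0.050) or OA replicate 2. The cause of these changes was not tested, except that fits without libraries have fewer samples.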
